A study of Mus musculus with 8 samples.

Results

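A set of genes of collecting duct sodium and water handling were followed in p53 null against p53 wild-type mouse kidneys. The 9 genes are Scnn1a, Scnn1b, Scnn1g, Aqp2, Aqp3, Avpr2, Hsd11b2, Nr3c2 and Sgk1, among 17305 genes with a named probe on the array. They were matched by symbol through the RefSeq identifier of each non-control probe, which gave 12 of 41174 probes. Kidneys came from embryos at embryonic day 15.5, and both genotypes were on the C57BL/6 strain. Each of 8 arrays held null and wild-type RNA in opposite dyes (Cy5 and Cy3), with the dyes swapped between arrays, so that every array gives a ratio of null over wild type and asks how expression differs without p53. The labels name 3 biological replicates, of which replicate 1 has 4 arrays and replicates 2 and 3 have 2 each. Neither the labels nor the headers say which part of Trp53 is absent in the null, or how many embryos went into each RNA. The p-values therefore measure the spread between these 3 replicates, whatever that spread contains.

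The collecting duct grows from the ureteric bud, and its principal cells fine-tune how much sodium and water leave with the urine. Aldosterone binds the mineralocorticoid receptor and raises the activity of the epithelial sodium channel, while vasopressin acts through its receptor and cyclic AMP to bring water channels to the cell surface. p53 is a transcription factor best known for halting the cell cycle and inducing cell death after damage, and it is also active in the developing kidney. RNA came from whole kidneys, in which fewer cells of a type and less RNA per cell cannot be told apart.

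Of the 9 genes, Scnn1g and Aqp3 were lower in null on all 8 arrays, at 0.567 and 0.760 of the wild-type level. Scnn1a, Avpr2 and Hsd11b2 were lower in null on every array of replicate 1 and higher on every array of replicates 2 and 3. Sgk1 was higher in replicates 2 and 3 and near equality in replicate 1. Aqp2 and Scnn1b were mixed, and Nr3c2 was not well above background. None of the 8 measured genes passed an adjusted p under 0.05 in limma (Benjamini-Hochberg over 20865 probes), where 0 probes (0%) passed. At an unadjusted p under 0.05, 2 of the 8 were lower in null, Scnn1g and Aqp3, against 1701 probes (8.15%). The same pair was lower in all 3 replicates, as were 4039 probes (19.4%), and lower on all 8 arrays, as were 1560 probes (7.48%).

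The stretches before the transcription starts of Scnn1g and Aqp3 are shown because these 2 genes were lower on every array, and that of Aqp2 because it is the water channel controlled by vasopressin. Each runs over the 250 bases before the start, from RefSeq on build GRCm38.p6, at chr7:121734229-121734478 (plus strand) for Scnn1g, chr4:41098184-41098433 (minus strand) for Aqp3 and chr15:99578806-99579055 (plus strand) for Aqp2. Capitals mark the letters found in a search of both strands for the GC box GGGCGG, the TATA box motif TATAAA, the steroid receptor hexamer AGAACA, the cyclic AMP core TGACG and the p53 decamer, a single arm of a p53 response element.
Scnn1g: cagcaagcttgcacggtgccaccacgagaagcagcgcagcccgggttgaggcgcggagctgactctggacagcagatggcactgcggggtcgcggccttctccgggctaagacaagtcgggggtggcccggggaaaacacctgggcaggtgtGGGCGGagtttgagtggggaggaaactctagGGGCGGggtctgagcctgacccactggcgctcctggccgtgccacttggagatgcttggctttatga
Aqp3: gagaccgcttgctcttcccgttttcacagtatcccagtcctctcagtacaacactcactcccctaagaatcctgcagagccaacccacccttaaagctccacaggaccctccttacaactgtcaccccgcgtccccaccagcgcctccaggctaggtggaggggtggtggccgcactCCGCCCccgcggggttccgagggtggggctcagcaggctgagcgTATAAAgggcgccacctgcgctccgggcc
Aqp2: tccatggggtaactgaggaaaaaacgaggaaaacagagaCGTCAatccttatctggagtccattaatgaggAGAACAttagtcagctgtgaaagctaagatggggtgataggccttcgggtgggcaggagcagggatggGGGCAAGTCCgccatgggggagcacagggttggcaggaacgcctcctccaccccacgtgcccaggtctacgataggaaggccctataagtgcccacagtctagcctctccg
Scnn1g held 2 GC boxes, which begin 98 and 67 bases before the start. Aqp3 held a GC box on the reverse strand at 73 bases and a TATA box at 29 bases. Aqp2 held the cyclic AMP core on the reverse strand at 211 bases, a steroid receptor hexamer at 179 bases and a p53 decamer at 111 bases. Such matches are common by letters alone. Of 32851 promoter windows of the same length, 32.7% held a GC box, 12.4% a TATA box, 16.1% a steroid receptor hexamer, 17.8% the cyclic AMP core and 7.13% a p53 decamer. Over the 12 windows of the 7 members that could be matched, 6, 4, 5, 2 and 1 held them, in that order. Sgk1 alone had several windows, so these are counts of windows and not of genes. A match describes the letters and is not a binding site.

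The arrays fell into 2 technical sets. Replicate 1 was hybridised on slide 1 and replicates 2 and 3 on slide 2, each slide scanned once, and slide 1 was read with an extended intensity range while slide 2 was not. Across all tested probes, the ratios of replicates 2 and 3 correlated at 0.93, whereas replicate 1 correlated at 0.06 with replicate 2 and −0.15 with replicate 3. The names of the scan files give the wild-type extract 1 number for replicates 2 and 3 and the null extracts 2 different numbers; whether the wild-type RNA was shared is not stated. Wild-type levels of replicates 2 and 3 differed by an SD of 0.11 (log2) over probes, and null levels by 0.17. The slide and the replicate cannot be told apart for replicate 1, so each ratio is given for replicate 1 and for slide 2. Between 46.9% and 62.8% of probes were well above background per array and genotype. The brighter of 2 Trp53 probes was lower in null on all 8 arrays, at −0.67 ± 0.36 (SD, n = 3), and the second probe was at 0.16 ± 0.13; where they lie relative to the deleted part is not known.

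**Figure D1:**
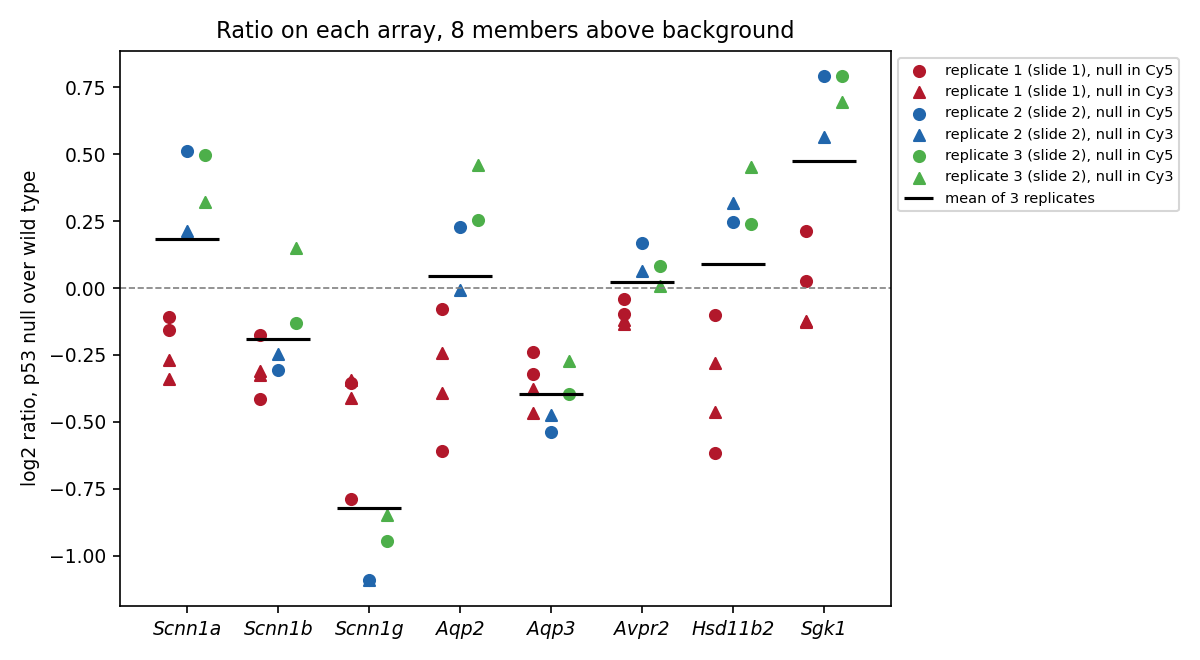
Each point is the log2 ratio of p53 null over wild type of 1 gene on 1 of 8 arrays, with colour for the replicate, shape for the dye of the null RNA, and a bar for the mean of the 3 replicates. Scnn1g and Aqp3 lie below 0 on all 8 arrays, while Scnn1a, Avpr2 and Hsd11b2 lie below 0 in replicate 1 and above it in replicates 2 and 3.

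The epithelial sodium channel is built from an alpha, a beta and a gamma subunit, encoded by Scnn1a, Scnn1b and Scnn1g, and is the route by which principal cells take sodium from the urine. Scnn1g (chromosome 7), the gamma subunit that proteases cleave to open the channel fully, gave log2 ratios of −0.35, −0.41, −0.79 and −0.34 on the 4 arrays of replicate 1. On slide 2 it gave −1.09 and −1.09 in replicate 2 and −0.94 and −0.85 in replicate 3. All 8 ratios were below 0, and those of slide 2 did not overlap with those of slide 1. The share of all probes with such a gap between slides was not counted. The mean log2 ratio was −0.82 ± 0.32 (SD, n = 3 replicates; 95% confidence interval −1.21 to −0.43), with an unadjusted p of 0.0038 and an adjusted p of 0.279 in limma. On slide 2 alone the ratio was −0.99, which is 0.502 of the wild-type level, against −0.47 in replicate 1.

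The normalized log2 intensity of Scnn1g in wild type was 8.90, 10.32 and 10.32 in replicates 1 to 3, and in null 8.43, 9.23 and 9.42. Null was the lower of the 2 genotypes in each replicate, and both genotypes read dimmer on slide 1. Scnn1g was well above background in both genotypes on all 8 arrays. Without within-array normalization the 3 replicates remained below 0 (−0.67, −0.65 and −0.34), and 5 of 8 arrays did.

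Scnn1a (chromosome 6), the alpha subunit needed for assembly of a working channel, gave −0.11, −0.34, −0.16 and −0.27 on the arrays of replicate 1. It gave 0.51 and 0.21 in replicate 2 and 0.50 and 0.32 in replicate 3. The 2 slides thus had opposite signs with no overlap, and the mean of 0.18 ± 0.35 (SD, n = 3; interval −0.24 to 0.60) was smaller than the spread between replicates (adjusted p 0.543, limma). A second Scnn1a probe was not well above background on any array. The 3 members with this pattern of signs, Scnn1a, Avpr2 and Hsd11b2, shared it with 2292 of the 20865 probes (11.0%).

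Scnn1b (chromosome 7), the beta subunit, gave −0.18, −0.31, −0.41 and −0.32 in replicate 1, −0.31 and −0.25 in replicate 2, and −0.13 and 0.15 in replicate 3. It was lower in null on 7 of 8 arrays, and replicate 3 stood apart at 0.0087. The mean was −0.19 ± 0.17 (SD, n = 3; interval −0.45 to 0.07; adjusted p 0.361, limma). Wild-type levels of 7.70, 8.18 and 8.09 stood against null levels of 7.39, 7.90 and 8.10.

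The 3 subunits had unequal ratios. The log2 ratio of Scnn1g was below that of Scnn1a on 8 of 8 arrays, by −0.25, −1.45 and −1.30 in the 3 replicates and by −1.60 to −0.07 over the arrays. It was also below that of Scnn1b on 8 of 8 arrays, by −0.63 ± 0.40 (SD, n = 3), with −0.17, −0.81 and −0.90 in the 3 replicates. Scnn1b lay below Scnn1a on 7 of 8 arrays, by −0.38 ± 0.28, with −0.09, −0.64 and −0.40 in the 3 replicates. Each of these differences was thus larger on slide 2. These differences within an array show unequal change and were chosen after the values were seen, so no test is attached.

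**Figure D2:**
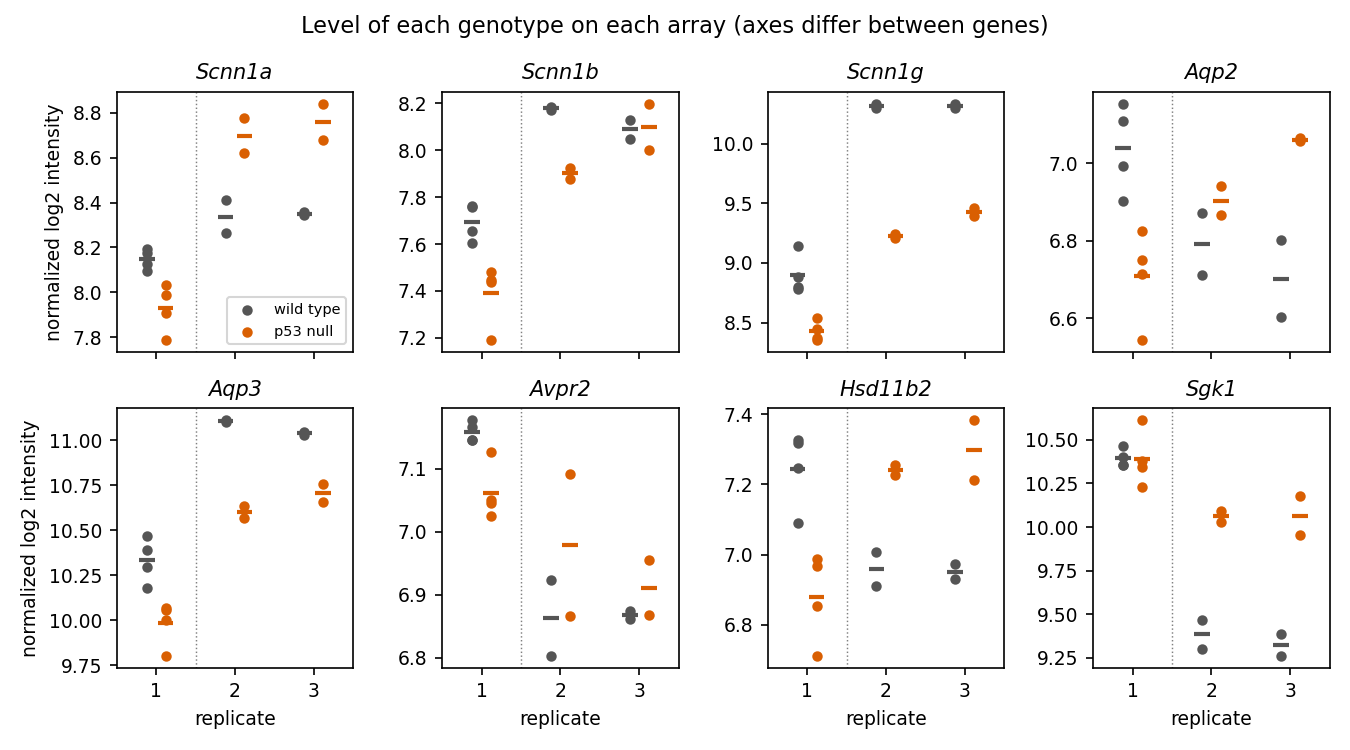
Each panel plots the normalized log2 intensity of 1 gene on each array (points) and the replicate means (bars) for wild type and null, with a dotted line between slide 1 and slide 2 and an axis of its own. Scnn1g and Aqp3 have lower null than wild-type means in all 3 replicates, and Sgk1 has nearly equal means in replicate 1 (10.40 and 10.39) and higher null means on slide 2.

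The water channels of principal cells sit on opposite faces of the cell. Aqp2 is the luminal channel that vasopressin moves to the membrane, and Aqp3 is one of the channels through which water leaves at the basolateral side. Aqp3 (chromosome 4) gave log2 ratios of −0.24, −0.46, −0.32 and −0.38 in replicate 1, −0.54 and −0.48 in replicate 2, and −0.39 and −0.27 in replicate 3. All 8 ratios were below 0, and those of the 2 slides overlapped. The mean was −0.40 with a replicate range of −0.51 to −0.33 (n = 3; interval −0.61 to −0.19), an unadjusted p of 0.0060 and an adjusted p of 0.279 (limma). Of the 8 measured genes Aqp3 had the smallest difference between slides, −0.42 on slide 2 against −0.35 in replicate 1.

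Aqp3 read 10.33, 11.11 and 11.04 in wild type and 9.98, 10.60 and 10.70 in null. Centring each array on its median in place of loess gave −0.52, −0.10 and 0.13 in the 3 replicates, beside medians of −0.11, 0.23 and 0.29 over all tested probes. No normalization gave −0.54, −0.01 and 0.24, beside −0.12, 0.31 and 0.40. Replicate 3 thus turned above 0 under these scalings, which shift other probes too, by unequal amounts. Aqp3 was still below the median of all probes in each replicate, and its mean stayed below 0 (−0.16 and −0.10). With loess on other background corrections, and with the scanner program's own log ratio, Aqp3 was lower in null on all 8 arrays.

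Aqp2 (chromosome 15) gave −0.08, −0.39, −0.61 and −0.24 in replicate 1, 0.23 and −0.0070 in replicate 2, and 0.26 and 0.46 in replicate 3. Replicate 1 was below 0 on all its arrays and replicate 3 above 0 on both. The mean was 0.05 ± 0.35 (SD, n = 3; interval −0.37 to 0.47; adjusted p 0.885, limma). Aqp2 was dim, with a median net spot signal of 48.3 in wild type and 39.3 in null, near the offset of 50 that was added to every signal and that draws dim ratios towards 0. Its wild-type spot was not well above background on either array of replicate 3, so the ratios of that replicate are over a signal near background.

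The ratio of Aqp3 lay below that of Aqp2 by −0.02 in replicate 1 and −0.62 in replicate 2; no difference is given for replicate 3, where the wild-type spot of Aqp2 was not well above background. Of 10 other aquaporins, 4 were measured, with mean ratios between −0.08 and 0.03. Aqp5, a channel of secretory epithelia, was at −0.08 ± 0.02, Aqp8 at 0.03 ± 0.02, Aqp4, another basolateral channel of principal cells, at 0.02 ± 0.20, and Aqp11, an intracellular aquaporin, at −0.02 ± 0.15 (SD, n = 3 each). Other Aqp4 probes were at 0.15 and 0.05. In wild type, Aqp5 and Aqp4 exceeded background clearly on 5 of 8 arrays and Aqp8 on 4. The offset added to every signal draws such dim ratios towards 0. With plain subtraction of the background, Aqp5 was at −0.38, Aqp8 at 0.17, Aqp4 at 0.30 and Aqp11 at −0.03. The narrow range with the offset therefore does not show that Aqp5, Aqp8 and Aqp4 were unchanged. Aqp1, the channel of proximal tubule and thin limb, was among the 6 that were not kept.

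Avpr2 (X chromosome), the vasopressin receptor of principal cells that couples to cyclic AMP, gave ratios from −0.13 to −0.04 on the arrays of replicate 1 and from 0.0066 to 0.17 on slide 2. The signs split by slide, and the mean was the closest to 0 of the 8 genes. It was 0.02 ± 0.11 (SD, n = 3; interval −0.20 to 0.24; adjusted p 0.903, limma). Levels were 7.16, 6.86 and 6.87 in wild type and 7.06, 6.98 and 6.91 in null, from net signals with medians of 52.5 and 57.3.

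Of 23 other genes of the vasopressin and water pathway, 22 were measured, and for 20 of these the wild-type spot stood well above background on each of the 8 arrays. 15 were lower and 7 higher in null, with a median of −0.05 beside 0.00 for all 12000 genes tested, and none passed the threshold or an unadjusted p under 0.05. Lower in all 3 replicates were 5 of 22, against 2369 of 12000. The 6 genes with the smallest p were Adcy6, an adenylyl cyclase (−0.20 ± 0.11), Myo5b, a motor that carries Aqp2 vesicles (−0.18 ± 0.08), and Avpr1a, the other vasopressin receptor of the kidney (−0.33 ± 0.31). They also included Prkacb, a catalytic subunit of protein kinase A (−0.15 ± 0.06), Gnas, the stimulatory G protein (−0.31 ± 0.36), and Ptger4, a prostaglandin receptor (−0.14 ± 0.12; SD, n = 3 each). Under median centring 6 of the 22 were lower and 16 higher, beside 2939 lower and 9061 higher of all genes. Those counts of all genes were 5898 and 6102 with loess, and 1932 and 10068 without normalization. A sign here is thus relative to a zero point that the scaling sets. Loess sets it by intensity, so genes moved by unequal amounts between scalings. In replicate 3, median centring in place of loess took Aqp3 from −0.33 to 0.13 and Avpr2 from 0.04 to 0.13.

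The last members act around the steroid hormone. Hsd11b2 (chromosome 8) encodes the enzyme that inactivates glucocorticoids and so keeps the mineralocorticoid receptor free for aldosterone. It gave −0.10, −0.46, −0.61 and −0.28 in replicate 1, 0.25 and 0.32 in replicate 2, and 0.24 and 0.45 in replicate 3. The slides had opposite signs with no overlap. The mean was 0.09 ± 0.39 (SD, n = 3; interval −0.38 to 0.55; adjusted p 0.794, limma), and the net signals were dim, with medians of 61.3 in wild type and 58.8 in null.

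Nr3c2 (chromosome 8), the mineralocorticoid receptor itself, had 3 probes and no usable level. The wild-type channel of each probe rose well above background on 0 of 8 arrays, and the null channel on 1 array for 1 probe and 0 for the others. Its RNA was not detectable with these probes, which does not show that it is absent, and no ratio is drawn from it.

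Sgk1 (chromosome 10), the aldosterone-induced kinase that keeps sodium channels at the membrane by holding off the ubiquitin ligase Nedd4l, gave 0.21, −0.12, 0.03 and −0.13 in replicate 1. It gave 0.79 and 0.56 in replicate 2 and 0.79 and 0.70 in replicate 3. Replicate 1 straddled 0 with the sign following the dye, and all 4 arrays of slide 2 lay above all 4 of slide 1. For this gap too, the share of all probes was not counted. The mean was 0.47 ± 0.41 (SD, n = 3; interval −0.01 to 0.96), a 1.39-fold higher level with an unadjusted p of 0.053 and an adjusted p of 0.294 in limma. On slide 2 alone Sgk1 was 1.64-fold higher in null.

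The Sgk1 level in null was 10.39, 10.06 and 10.07 in replicates 1 to 3, and in wild type 10.40, 9.38 and 9.32. The wild-type levels of the 2 slides were thus further apart than the null levels. Over all tested probes, levels of the 2 slides differed by an SD of 0.79 in null and 0.81 in wild type. The ratio of Sgk1 exceeded that of Scnn1g on all 8 arrays, by 1.29 ± 0.72 (SD, n = 3), with 0.47 in replicate 1 against 1.77 and 1.64 in replicates 2 and 3.

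Of 29 other genes of sodium transport and aldosterone action, 25 were measured, 22 of them with a wild-type spot well above background throughout. 16 were lower and 9 higher in null, with a median of −0.13, and 9 of 25 were lower in all 3 replicates, against 2369 of 12000 genes. None passed the threshold; at an unadjusted p under 0.05, 4 were lower and 1 higher, against 1071 lower and 1109 higher of 12000 genes. Per1, a clock gene that aldosterone induces in collecting duct cells, was at −0.81 ± 0.20 (SD, n = 3; adjusted p 0.279, limma) and below 0 on all 8 arrays. Under median centring 8 of the 25 were lower and 17 higher, beside the same 2939 lower and 9061 higher of all genes.

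Among the kinases of this group, Wnk1, which controls salt transporters and channels, was at −0.40 with replicates of −0.23, −0.56 and −0.42, and a second probe at −0.16. Stk39, the kinase through which WNK kinases act on transporters, was at −0.31 ± 0.22. Pdpk1, which activates the Sgk kinases, was at −0.29 ± 0.13, and its other probes were at −0.35 and −0.22. Sgk3, a relative of Sgk1, was at 0.36 ± 0.14 and above 0 on all 8 arrays. Nedd4, a ubiquitin ligase of the sodium channel, was at −0.17 ± 0.02 with a second probe at −0.46 (SD, n = 3 each). The mean of Per1, Wnk1, Stk39, Pdpk1 and Sgk3 kept its sign under every scaling tried, but replicates 2 and 3 of Pdpk1 turned to 0.05 and 0.26 under median centring and 0.14 and 0.37 without normalization. Without normalization replicates 2 and 3 of Stk39 were also above 0, at 0.05 and 0.10, as was replicate 3 of Wnk1 at 0.10. The mean of Nedd4 turned to 0.12 under median centring and 0.18 without normalization. Nedd4l itself was not well above background often enough to be kept.

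**Figure D3:**
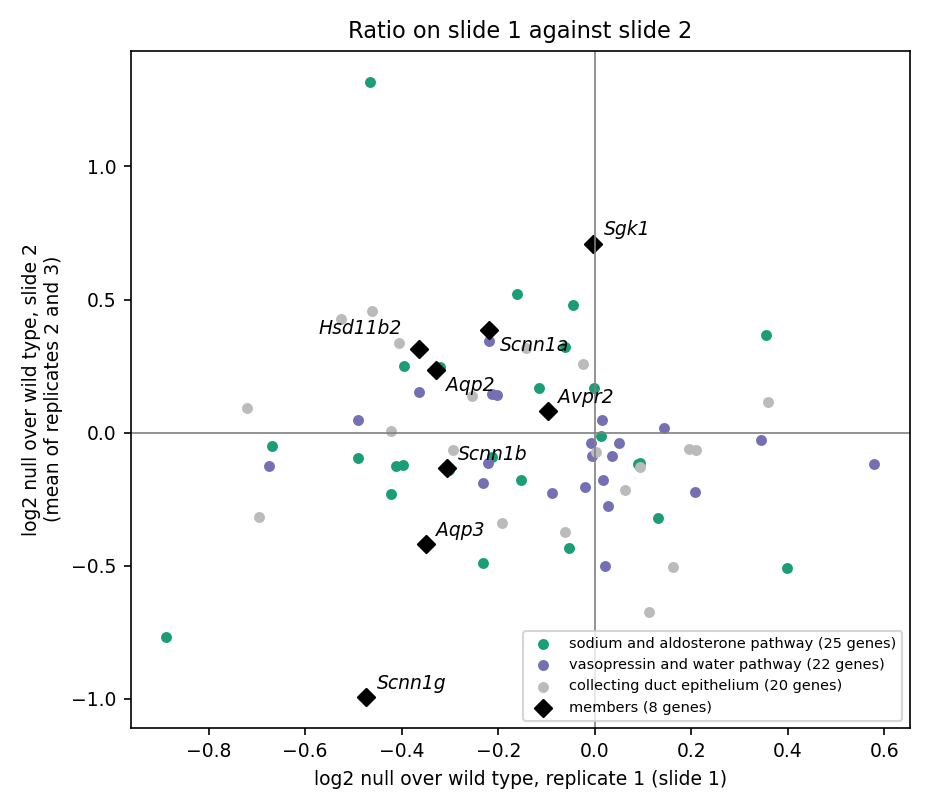
Each point is 1 gene, with its log2 ratio of null over wild type in replicate 1 (slide 1) on the horizontal axis and the mean of replicates 2 and 3 (slide 2) on the vertical axis, for the 8 measured members and 3 lists. Scnn1g, Aqp3 and Scnn1b lie in the lower left, Scnn1a, Aqp2, Avpr2 and Hsd11b2 in the upper left, and Sgk1 near 0 in replicate 1 and at 0.71 on slide 2.

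Markers of the collecting duct were present. All 20 genes of the collecting duct epithelium list were measured and well above background in both genotypes on all 8 arrays. 11 were lower and 9 higher in null, with a median of −0.05, of −0.10 in replicate 1 and of −0.06 on slide 2, and 3 of 20 were lower in all replicates, against 2369 of 12000 genes. Those with the smallest p included the epithelial keratins Krt19 (−0.44 ± 0.26) and Krt18 (−0.27 ± 0.18) and the ureteric bud homeobox gene Hoxb7 (0.20 ± 0.15; SD, n = 3 each), none past the threshold. Under median centring 5 of the 20 were lower, as were 2939 of 12000 genes, and Krt18 was at 0.03. The median of the 8 members was 0.03, of −0.32 in replicate 1 and of 0.16 on slide 2.

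Other cell type lists also had lower medians in replicate 1 than on slide 2. The 2 medians were −0.15 and 0.53 for 7 loop and distal tubule genes and −0.08 and 0.58 for 9 proximal tubule genes, of which 5 and 7 were well above background in wild type throughout. They were −0.20 and 0.33 for 7 intercalated cell genes and −0.15 and 0.28 for 4 urothelium genes, of which only 4 and 1 were; the others were kept through the null channel, so these medians include ratios over wild-type spots at background and are no support for a change. Upk3a, a urothelial plaque protein, was at −0.62 in replicate 1 and 1.34 on slide 2, while the urothelial genes Krt20 (0.22 ± 0.25), Upk1b (0.06 ± 0.24) and Trp63 (0.03 ± 0.10) were detected in the wild-type channel of 4 of 8 arrays each, and Upk1a, Upk2, Krt5 and Psca were not kept. For 10 ureteric tip genes the medians were −0.10 and 0.06. The part of cell composition in the member ratios was not tested.

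The mean of each of the 10 stroma genes was below 0, with medians of −0.33 and −0.34 on the 2 slides, but 7 of 10 were lower in all 3 replicates, and 8 of 10 means were below 0 under median centring and 6 without normalization. Of all 12000 genes, 5898 means were below 0 and 2369 genes were lower in all 3 replicates. Under median centring 2939 of those means were below 0, and 1932 without normalization. Dcn (0.17) and Acta2 (0.22) were above 0 on slide 2 and Pdgfra (0.17) in replicate 1. The mean of each of the 7 leukocyte genes was above 0 under every scaling tried, with medians of 0.23 and 0.56, but 4 of 7 were higher in all 3 replicates. Of all 12000 genes, 2452 were higher in all 3 replicates. Most of their means were above 0 under median centring (9061) and without normalization (10068), against 6102 with loess. Csf1r (−0.38), Laptm5 (−0.19) and Fcer1g (−0.38) were below 0 in replicate 1. These exceptions were named after their values were seen. The 8 endothelium genes had medians of 0.00 and 0.41. The 11 genes of kidney identity had a median of −0.05. Of 7 adrenal cortex genes, 1, Mc2r, was kept, at 0.33, and Star, Cyp11a1, Cyp21a1, Hsd3b1 and Nr5a1 were not.

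Which members passed the threshold depended on how the slides were treated. Without replicate 1, 6 of 8 members passed in limma: Scnn1g at −0.99 (adjusted p 1.2e-12), Sgk1 at 0.71 (7.4e-10), Aqp3 at −0.42 (1.0e-05), Scnn1a at 0.38 (2.5e-05), Hsd11b2 at 0.31 (0.00031) and Aqp2 at 0.23 (0.0075). So did 11699 of 20870 probes (56.1%), and this fit rests on 2 replicates of 1 slide. Aqp2 was kept through the null channel, and its wild-type spot was not well above background in replicate 3. Its pass is therefore no support for a change. With slide as a fixed block, 4 of 8 passed against 8521 probes (40.8%): Scnn1g at −0.73 (adjusted p 1.9e-10, limma), Aqp3 at −0.39 (1.1e-05), Sgk1 at 0.35 (2.7e-05) and Scnn1b at −0.22 (0.0070). The error of this fit also comes from replicates 2 and 3 alone, since replicate 1 is the one replicate of its slide. With all 8 arrays, a dye term and the replicate as a random effect, 2 of 8 passed against 1136 probes (5.44%). They were Scnn1g at −0.81 (adjusted p 0.0283, limma) and Aqp3 at −0.40 (0.0434). The error of this fit also draws on repeat arrays of the same RNA, allowed for by the same correlation for all probes. With 1 value per slide, 0 members and 0 probes (0%) passed. Scnn1g and Aqp3 were the 2 members that passed in each of the first 3 of these settings. Those settings reuse the same arrays and are not separate support. The share of all probes that passed in all 3 was not counted.

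**Figure D4:**
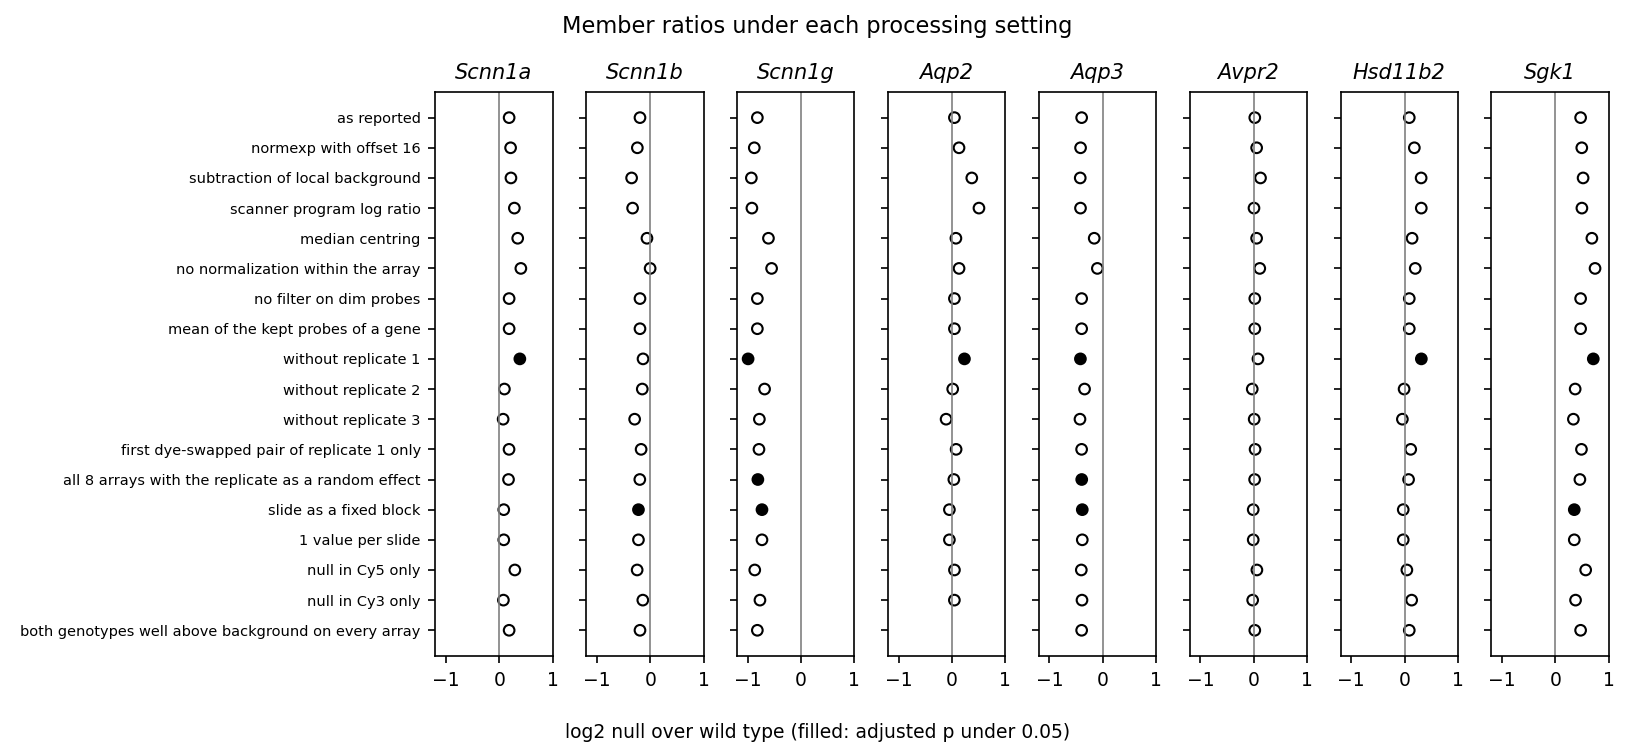
Each panel is 1 gene and each row a processing setting, with the log2 ratio of null over wild type on the horizontal axis and filled points for an adjusted p under 0.05 in limma. Scnn1g, Aqp3 and Scnn1b lie at or below 0 and Scnn1a and Sgk1 above 0 in every setting shown, and Aqp2, Avpr2 and Hsd11b2 change sign; Aqp2 has no point under the strictest filter, which removes it.

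For each measured gene, the 2 genes with the most similar ratios over the 8 arrays were found among 11999 others by the root mean square difference (log2). Scnn1g was nearest to Mif (0.130) and Stat3 (0.145), further from its neighbours than any other member. Aqp3 was nearest to Ccdc61 (0.076) and Meak7 (0.084), and Sgk1 to Gatad1 (0.071) and Pcdh12 (0.077). Scnn1a was nearest to Zdhhc6 (0.044) and Csdc2 (0.050), and Scnn1b to Fars2 (0.055) and Abca2 (0.057). Aqp2 was nearest to Tacc2 (0.079) and Cspg5 (0.081), Hsd11b2 to Pdgfb (0.072) and Rcor3 (0.075), and Avpr2 to Ywhag (0.035) and Cnn3 (0.041). No member was among the 2 nearest genes of another.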

How the data were processed

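The authors deposited scanner output in which each spot and its local background has a linear intensity. It came from Feature Extraction, version 10.5.1.1 per the file headers and 6.1 per the submitters' processing notes. The program's log10 ratio of red over green, deposited in the same files, served as an alternative. Dyes were built directly into cDNA made from column-purified total RNA, per the labels' protocols.

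Median spot and local background signals were corrected with normexp (offset 50), and arrays were normalized by loess in limma 3.58.1 (R 4.3.3), with the 1639 control spots at weight 0. Outlier spots were left out; 0 were saturated. Ratios were turned to log2 null over wild type and dye orientations were averaged within a replicate. A probe was kept if either genotype exceeded background clearly (the scanner program's flag) in 50% or more of the arrays in each replicate; 20865 probes with 3 values were tested against 0 (lmFit, eBayes, two-sided). A gene was represented by its brightest kept probe, and probes were named through RefSeq identifiers. Levels are channel intensities after loess and Aquantile scaling, comparable within a probe only. The number of arrays limits the precision. The fit was tested on simulated ratios with the measured spread, drawn independently for each replicate. It recovered 1 of 50 probes changed 1.5-fold, 19 of 50 at 2-fold, 33 of 50 at 4-fold and 46 of 50 at 8-fold. It also called 3 of 20665 unchanged probes. In the data, replicates 2 and 3 shared a slide, which the simulation did not copy, so these counts may not hold for the data. A gene that does not pass the threshold is thus not shown to be unchanged.

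The members, the lists and the rule for named genes were chosen with earlier results of these data known. Named were all members, the 6 genes of each pathway list and the 4 of the collecting duct and urothelium lists with the smallest p, and the 2 nearest patterns; 1 gene of the collecting duct list that met the rule is not reported here.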

Additional observations from a re-analysis of the deposited data

How the results depend on the processing

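Over 17 alternatives the sign of Scnn1g (−0.99 to −0.55), Aqp3 (−0.43 to −0.10), Scnn1b (−0.35 to −0.0014), Scnn1a (0.07 to 0.40) and Sgk1 (0.34 to 0.74) was the same, although single replicates of Aqp3 turned as described. With slide as a fixed block, and with 1 value per slide, Aqp2 (−0.048), Avpr2 (−0.0089) and Hsd11b2 (−0.025) turned below 0; Avpr2 did so also with null in Cy3 only (−0.019). Leaving out 1 replicate at a time gave −0.11 to 0.23 for Aqp2, −0.027 to 0.080 for Avpr2 and −0.041 to 0.31 for Hsd11b2; the cause was not tested. Members past the threshold numbered 0 as reported, 2 with the replicate as a random effect, 4 with the slide block and 0 to 6 with 1 replicate left out. Probes higher in null numbered 602, 4148 and 0 to 6424 in those settings, and probes lower in null 534, 4373 and 0 to 5275, against 0 and 0. Members lower in all 3 replicates numbered 2 as reported and 1 under median centring and without normalization, where Scnn1g was left. They numbered 3, with Scnn1b added, under offset 16, plain background subtraction, the scanner program's log ratio and null in Cy5 only. Without replicate 3, and with 1 value per slide, the count was also 3, but over fewer values. Replicate 3 of Scnn1b was then dropped or averaged with replicate 2. A random-effect fit estimated a correlation of 0.72 between arrays of a replicate. Every array already compares both genotypes within a replicate number, so no further paired fit was made. Signals of Aqp2, Avpr2 and Hsd11b2 close to background limit the size of their ratios. With plain subtraction of the background, slide 2 gave 0.99, 0.29 and 0.86, and replicate 1 gave −0.86, −0.19 and −0.80. The 0.99 of Aqp2 includes replicate 3 at 1.45, where its wild-type spot was not well above background.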
